A study of Mus musculus with 6 samples.

Results

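The imprinted Gnas locus on mouse chromosome 2 was examined in the pancreas of 12-week-old mouse offspring with MeDIP-chip, in which an antibody enriches methylated DNA and the enriched DNA is hybridised to a tiling array beside input DNA. The locus was taken as all non-control probes that start between 174090000 and 174185000 on chromosome 2 of build mm9, the build of the arrays per the file headers. This interval held 318 of the 174638 non-control probes. Pancreatic tissue of offspring of dams with glucose intolerance (3 arrays) was compared with that of offspring of dams with normal glucose tolerance (3 arrays), and in the series title the former dams are hyperglycemic. The labels name no strain, sex or diet, and do not say how the dams became glucose intolerant. The labels leave unstated whether samples within a group are separate animals or litters, and p-values therefore reflect only how far these samples vary, part of which may be technical. The tissue label could not be checked against marker genes, because the arrays measure DNA and pair no probe with a gene.

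Gnas encodes the stimulatory G protein alpha subunit, which couples hormone receptors such as those for glucagon and glucagon-like peptide 1 to the production of cyclic AMP. In mice the locus makes several transcripts from alternative promoters. The Nesp promoter is methylated on the paternal allele, whereas the promoters of Gnasxl, of the antisense transcript Nespas and of exon 1A are methylated on the maternal allele, and the promoter of the G protein subunit itself is unmethylated on both. An antibody against methylated DNA enriches methylated fragments whichever parent they come from, so the arrays do not separate the parental alleles.

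RefSeq lists several starts for Gnas on build GRCm38.p6, and the 250 bases before 3 of them are shown because some promoters of this locus carry imprints. The starts were not matched to the transcripts named above, so the 3 promoters shown need not all be imprinted. Another entry, which starts 19 bases after promoter B, is left out. CpG dinucleotides, the sites of DNA methylation in mammals, are in capitals, and all sequences are on the plus strand. Promoter A is chr2:174284070-174284319, promoter B is chr2:174327499-174327748 and promoter C is chr2:174329756-174330005. Nespas had no entry in the promoter table.
Gnas promoter A: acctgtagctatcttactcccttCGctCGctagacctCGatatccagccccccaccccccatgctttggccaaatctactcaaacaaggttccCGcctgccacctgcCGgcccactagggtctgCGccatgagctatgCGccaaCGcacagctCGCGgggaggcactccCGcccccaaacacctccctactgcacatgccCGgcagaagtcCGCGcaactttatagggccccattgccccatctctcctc
Gnas promoter B: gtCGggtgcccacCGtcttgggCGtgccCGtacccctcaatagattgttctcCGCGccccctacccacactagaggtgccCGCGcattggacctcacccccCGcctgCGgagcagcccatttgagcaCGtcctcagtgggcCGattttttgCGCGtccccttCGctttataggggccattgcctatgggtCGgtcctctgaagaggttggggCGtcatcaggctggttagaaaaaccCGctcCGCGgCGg
Gnas promoter C: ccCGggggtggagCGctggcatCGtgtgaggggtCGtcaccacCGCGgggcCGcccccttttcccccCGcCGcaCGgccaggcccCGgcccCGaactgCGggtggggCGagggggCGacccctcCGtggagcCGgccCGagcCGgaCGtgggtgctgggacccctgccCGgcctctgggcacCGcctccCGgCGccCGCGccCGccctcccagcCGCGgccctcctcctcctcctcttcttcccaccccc
The 3 windows held 14, 21 and 29 CpG, read as the letters CG, which are the same on both strands. As many or more were found in 29.4%, 16.3% and 6.8% of the 32851 mouse promoter windows of the same length, whose median was 6. The start behind promoter B lies 43.4 kb after that behind promoter A. The start behind promoter C follows 2.2 kb after the one before it in the table. The probes are on build mm9 and no coordinates were converted, so no probe is assigned to a promoter and the values below are given by mm9 position.

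The value of a probe was the log2 ratio of MeDIP over input signal, centred on the median probe of its array, so that 0 is the array's median and a negative value means less immunoprecipitated DNA relative to input. The 318 probes were 45 to 60 nt long and spanned 75.8 kb, from 174100927 to 174176708, with a median of 208 bp between starts. Gaps over 500 bp divided them into 5 tiled runs. Of the 318 probes 222 entered the main test. The other 96 did not, 95 of them for dim input (not well above background on at least 1 array) and 1 for lack of values in a group. Input was well above background at 242, 244 and 257 of the 318 probes on glucose intolerance replicates 1, 2 and 3, against 302, 282 and 283 on normal tolerance replicates 1, 2 and 3. The 2 groups did not overlap in this count, and over all probes of the arrays the shares were 71.0% to 78.7% against 85.5% to 92.4%. Of the locus probes, 93 had dim input on at least 1 glucose intolerance array and 44 on at least 1 normal tolerance array. MeDIP spots were well above background for 77.4% to 85.2% and 78.0% to 80.5% of locus probes. The 3 glucose intolerance arrays shared 1 scan, normal tolerance replicate 1 was scanned alone and replicates 2 and 3 together, with the red photomultiplier at 359 V, 394 V and 421 V. Scan and group therefore cannot be told apart within any scan.

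Across the locus the ratios lay below the array median. Over the 206 tested probes with a value on every array, the mean ratio was -0.58, -0.46 and -0.52 log2 units on the glucose intolerance arrays and -0.74, -0.47 and -0.60 on the normal tolerance arrays. The group ranges overlapped, with means of -0.52 ± 0.06 and -0.60 ± 0.14 (SD, n = 3 each) and a difference of 0.08. Over the 102221 such probes of the whole arrays the means were -0.17 and -0.29, a difference of 0.12. The median locus probe was at -0.28, against -0.03 for all such probes. Of the locus probes 15.05% were below -2 and 37.9% above 0, against 8.30% and 48.9% of all such probes. With glucose intolerance 56.3% of the locus probes had the higher mean, against 61.9% of all such probes. Scaling decided the sign of the locus difference: it was -0.0515 after loess and -0.0471 after quantile normalization. With dim probes included, the 300 locus probes with a value on every array gave -0.44 ± 0.07 and -0.51 ± 0.19 (SD, n = 3 each).

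The ratio was uneven along the 75.8 kb. Among 16 windows of 5 kb, the highest was that from 174120001 to 174125000 (22 probes with complete values), at a mean of 0.16 log2 units over the 6 arrays. It was followed by the window from 174105001 to 174110000, at 0.012, and these 2 windows alone had a mean above 0. The lowest was the last window, from 174175001 on (7 such probes), at -1.95. The first window and the window from 174170001 to 174175000 followed, at -1.06 and -1.05, and that from 174155001 to 174160000 was at -0.90. The standard deviation over the locus probes was 1.21, and in the highest window probes ranged from -1.35 to 1.17.

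**Figure D1:**
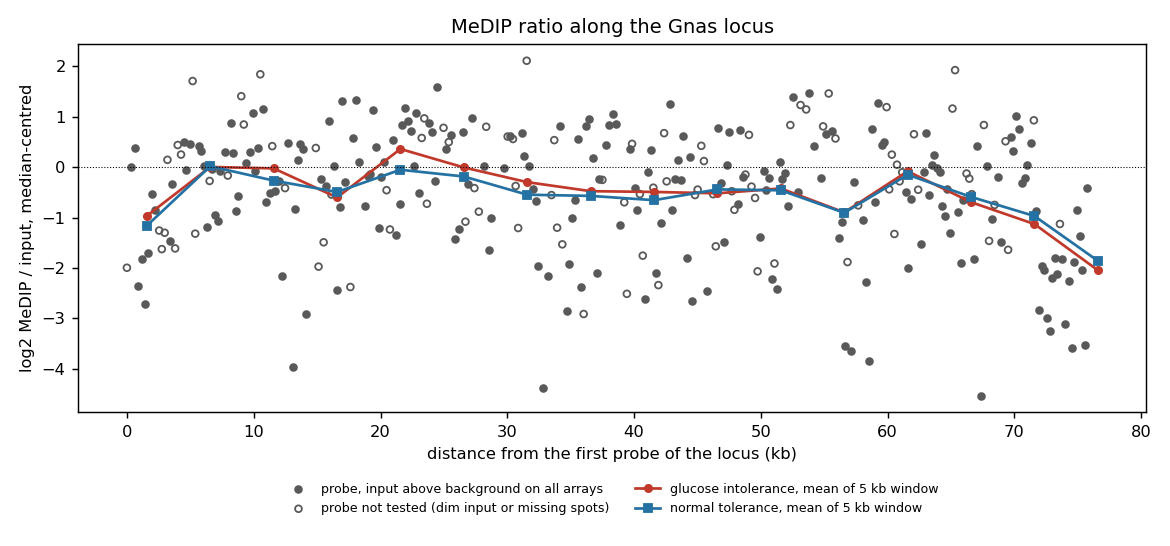
Mean log2 MeDIP over input ratio of each of the 318 probes over 6 arrays (grey points, filled where tested, open where not) against distance from the first probe in kb, with the means of 5 kb windows for each group (lines). The window means lie near or below 0 over most of the locus and fall to -1.95 over 6 arrays in the last window.

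The 5 tiled runs gave the same picture in coarser form. Run 3, from 174119702 to 174129729 with 43 probes, was the highest, at a mean of 0.02. Its values were 0.12, 0.22 and 0.15 on the glucose intolerance arrays and -0.06, -0.13 and -0.18 on the normal tolerance arrays. The groups did not overlap and their means differed by 0.29, where the tested probes of the run alone gave 0.25, loess 0.17 and the fit without normal tolerance replicate 1 0.32. Run 2, from 174115825 to 174119241 with 16 probes, went the other way, at -0.57, -0.44 and -0.50 against -0.41, -0.30 and -0.17. These groups did not overlap either, but the difference of -0.21 was -0.03 over its tested probes and -0.04 with dim MeDIP spots raised to a floor, the lowest MeDIP signal that counted as well above background on the same array. The other runs overlapped between groups. Run 1, from 174100927 to 174115069 with 61 probes, averaged -0.40 with a difference of 0.16. Run 4, from 174130654 to 174146696 with 69 probes, averaged -0.56 with a difference of 0.13. In run 4 normal tolerance replicate 1 stood apart at -0.97, where the other 5 arrays lay between -0.52 and -0.37. Run 5, from 174147160 to 174176708 with 129 probes, was the lowest at -0.65, with a difference of -0.05. Among the 133 runs of the arrays with at least 15 complete probes the groups did not overlap in 12.8% in the higher and 6.02% in the lower direction.

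The highest window lay in run 3. Its means were 0.34, 0.38 and 0.36 on the glucose intolerance arrays and 0.19, -0.13 and -0.22 on the normal tolerance arrays. All 3 arrays of the first group were above all 3 of the second, at 0.36 ± 0.02 against -0.05 ± 0.21 (SD, n = 3 each), a difference of 0.41. Over its tested probes alone the difference was 0.26, as it was with both channels required above background, and without normal tolerance replicate 1 it was 0.53. One probe with dim input in this window, described further on, contributed a difference of 3.05. The groups also failed to overlap in the windows from 174110001 (difference 0.24) and from 174125001 (difference 0.18), again with the higher values under glucose intolerance. Of the 16 windows 10 were higher and 6 lower under glucose intolerance, and the lower ones included the last 3. Over the 11611 windows of the arrays with at least 7 complete probes, 67.0% were higher, and the groups did not overlap in 17.3% in the higher and 5.08% in the lower direction. The 3 of 16 and 0 of 16 in the locus lay near those shares. The longest series of neighbouring probes above the array median was within the highest window, 6 probes from 174122646 to 174123806 with a mean of 0.79. On the arrays as a whole 1541 such series were as long or longer.

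**Figure D2:**
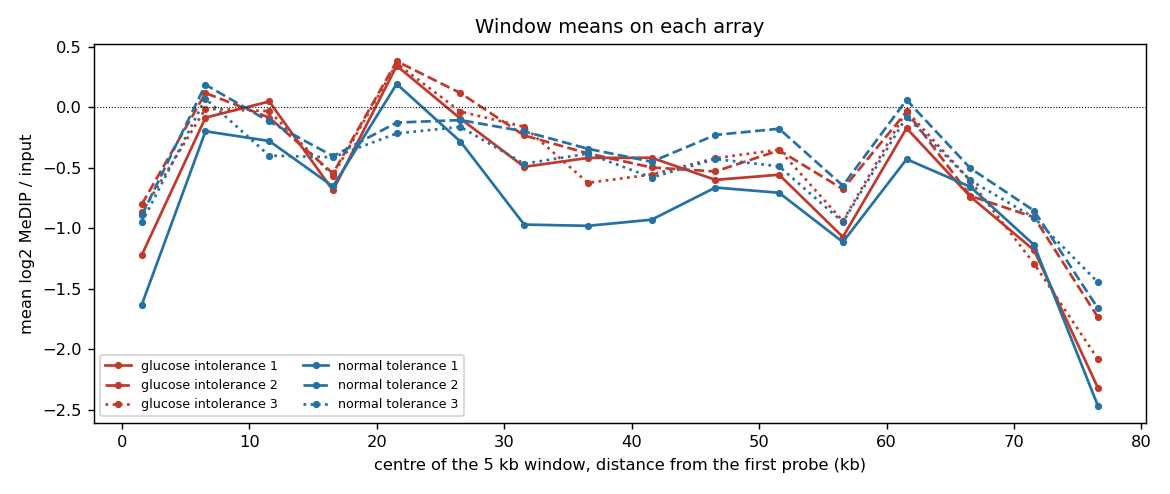
Mean log2 MeDIP over input ratio in 16 windows of 5 kb on each of the 6 arrays, against the window's centre in kb from the first probe. In the fifth window the 3 glucose intolerance arrays lie at 0.34 to 0.38, above the 3 normal tolerance arrays at -0.22 to 0.19, while in the last window the groups overlap.

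The distal end of the tiled interval, at the highest coordinates, held a long stretch of low ratios. All 20 probes from 174172660 to 174176708 had a mean ratio below the array median, the longest such series in the locus, singled out after its values were seen. It covered 4.05 kb, and its mean was -2.10, with probe means from -3.59 to -0.41. The array means were -2.44, -1.92 and -2.47 with glucose intolerance and -2.33, -1.72 and -1.73 with normal tolerance, and these ranges overlapped. On 18 of the 20 probes every measured array was below 0. No other series of probes below the median was as long on the arrays, although only 27 tiled runs held 20 probes or more. In the stretch 1 of 120 input spots and 13 of 120 MeDIP spots were not well above background. In the last 5 kb window the input lay 1.59 log2 units above the array's median input and the MeDIP signal 0.40 below the array's median MeDIP (the difference to that median was -0.40). The stretch mean, over its probes with complete values, was -2.09 in the main setting and -1.07 after normexp background correction, -1.41 without background subtraction and -1.43 in the authors' deposited table, whose normalization is unknown and which may be smoothed along the genome.

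Group differences at single probes were tested with limma. At an adjusted p of 0.05 (Benjamini-Hochberg over all 115649 tested probes) 0 of the 222 tested locus probes differed, and 1 probe did on the whole arrays (0.000865%). At an unadjusted p of 0.05, 40 locus probes (18%) passed, against 15.8% of all tested probes. Of these 27 were higher and 13 lower under glucose intolerance, or 12.2% and 5.86% of the locus probes, against 10.3% and 5.53% of all. This split moved with the scaling: 19 of 46 were higher after loess, 26 of 51 after quantile normalization and 19 of 38 when the tested probes were centred on their own median. After normexp 49 of 57 were higher, without background subtraction 47 of 55 and in the authors' deposited values 46 of 69. Of all tested probes 16.3%, 20.3%, 14.9%, 28.2%, 25.6% and 29% passed in these settings, in the same order. Their split by direction was not counted. The 2 groups of arrays did not overlap at 29 locus probes in the higher and 18 in the lower direction, or 13.1% and 8.11%, against 15% and 8.34% of all. These shares lay near those of the whole arrays. Differences beyond 1 log2 unit numbered 9 in each direction, 4.05% each, against 3.75% higher and 1.68% lower among all tested probes. The 95% confidence interval of a probe's difference had a median half-width of 0.62 log2 units in the locus, from 0.45 to 2.66. Calls at the adjusted threshold depended on 1 array and on the processing. Without normal tolerance replicate 1 there were 14, and the authors' deposited values gave 16 under the same test. The calls over the whole arrays in these 2 fits were not counted, so nothing particular to the locus is read from them.

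**Figure D3:**
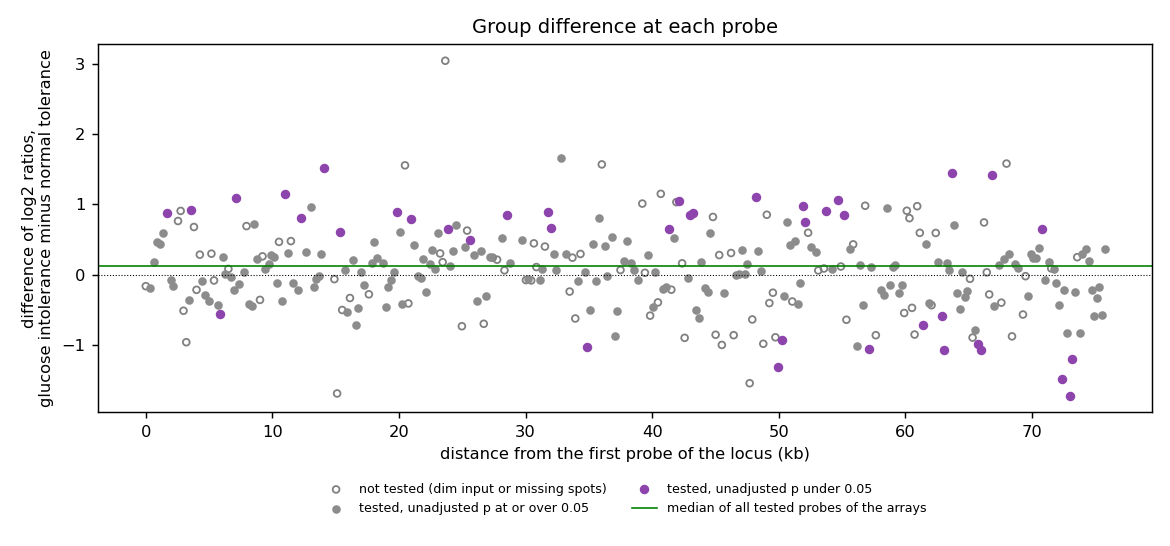
Difference of mean log2 ratio, glucose intolerance minus normal tolerance, at each locus probe against distance from the first probe in kb. Filled points were tested, open points were not, purple marks an unadjusted limma p under 0.05 (40 probes), and the green line is the median difference of all tested probes of the arrays, 0.13.

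The 3 probes with the lowest p among those higher under glucose intolerance lay apart from each other, 42.1, 63.7 and 66.8 kb from the first probe. The probe at 174164614 to 174164658 (Ch_220697_0094246, 45 nt) read 0.85, 1.20 and 0.86 with glucose intolerance and -0.29, -0.79 and -0.38 with normal tolerance. The first group lay above and the second below the array median, and they did not overlap. The difference was 1.45 (standard error 0.23, 2.74-fold, adjusted p = 0.105 in limma). The next probes on either side differed by 0.07 and 0.71. The probe at 174167764 to 174167816 (Ch_220697_0094261) read -1.06, -0.68 and -1.60 against -2.49, -2.42 and -2.70. Both groups were below the median and the first was less so, by 1.42 (standard error 0.27, 2.67-fold, adjusted p = 0.121 in limma). Its neighbours differed in the other direction, by -0.28 and -0.44. The probe at 174143056 to 174143102 (Ch_220697_0094156) read -0.37, -0.86 and -0.49 against -1.50, -1.84 and -1.53. It also did not overlap between groups and differed by 1.05 (standard error 0.23, adjusted p = 0.137 in limma). The probe before it differed by 1.03 and the probe after it by 0.16, and neither entered the main test. Both channels were well above background on all 6 arrays at the 3 named probes. Relative to the array medians, their MeDIP signals were higher by 0.91, 0.73 and 1.38 under glucose intolerance, in the order given. The input signals were lower at the first and the second (differences of -0.42 and -0.56) and higher at the third, by 0.45. The ratio differences of the first and the second were smaller in the authors' deposited values, at 0.67 and 0.61, and that of the first was 0.69 after normexp. The third was at 0.83 in the deposited values and 0.87 after normexp.

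In the lower direction the 3 probes with the lowest p all lay in the low stretch at the distal end, within 1 kb of one another. The probe at 174173899 to 174173944 (Ch_220697_0094288) read -2.84, -2.71 and -3.11 with glucose intolerance and -1.14 and -1.19 on normal tolerance replicates 2 and 3, since the spot of replicate 1 was an outlier and entered no fit. All glucose intolerance arrays were lower, by 1.72 log2 units, coded as -1.72 (standard error 0.25, 3.30-fold, adjusted p = 0.105 in limma). The probe at 174173284 to 174173329 (Ch_220697_0094285) read -2.67, -2.49 and -3.19 against -1.46, -0.97 and -1.46. It differed by -1.49 (standard error 0.26, adjusted p = 0.114 in limma) with no overlap. The probe at 174174110 to 174174154 (Ch_220697_0094289) read -2.37, -2.13 and -2.69 against -1.19, -1.21 and -1.18, and differed by -1.20 (standard error 0.22, adjusted p = 0.116 in limma). The probes on either side of the first differed by -0.83 and -1.20, the latter being the third named probe. Those beside the second differed by -0.44 and -0.22, and the probe after the third by -0.24. The 3 named probes had no dim spot in either channel. After normexp the differences shrank to -0.83, -0.58 and -0.60 in the order given, and in the authors' deposited values they were -1.32, -0.62 and -0.86. Each difference had a part in both channels. Relative to the array medians, the MeDIP signals were lower by 0.93, 0.70 and 0.51 (differences of -0.93, -0.70 and -0.51) and the input signals higher by 0.87, 0.91 and 0.82 under glucose intolerance, in the order given. Over the 20 probes of the stretch the median difference was -0.23, with 14 probes lower and 6 higher. The mean difference over its probes with complete values was -0.34, but -0.12 without background subtraction and -0.0065 after normexp. It was -0.63 after quantile normalization, -0.56 without normal tolerance replicate 1, -0.52 without glucose intolerance replicate 2 and -0.23 without normal tolerance replicate 2. The 2 groups did not overlap at 4 of the 20, all lower under glucose intolerance, as did 9.33% of all probes with dim input kept, and nothing is read from this count, since the stretch was picked on its values. The median channel difference was 0.01 for MeDIP and 0.68 for input, and the part of the input channel, of scan and of photomultiplier setting in these differences was not tested.

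**Figure D4:**
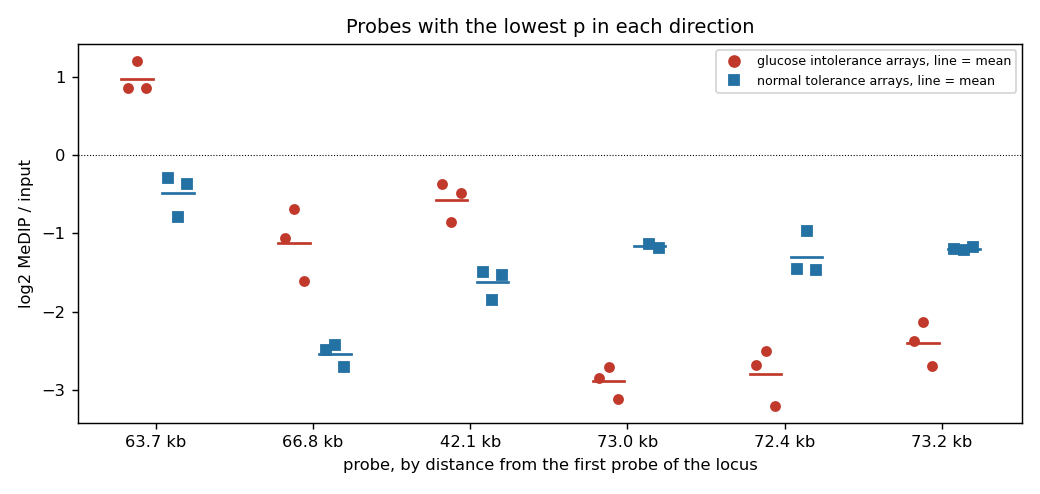
Log2 MeDIP over input ratio on each array at the 6 probes with the lowest p, 3 higher and then 3 lower under glucose intolerance, labelled by distance from the first probe in kb, with group means as lines. Points of the 2 groups do not overlap at any of the 6, and normal tolerance replicate 1 is missing at 73.0 kb.

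Averaging neighbouring probes into regions also gave 0 calls. Kept probes with starts no more than 500 bp apart were joined, and series of 3 or more formed 28 regions in the locus and 18562 in all. In limma 0 of 28 passed an adjusted p of 0.05, as did 0 of 18562 (0%). At an unadjusted p of 0.05 4 regions of the locus passed, 3 higher and 1 lower (10.7% and 3.57%), against 13.3% and 2.51% of all regions. Here too the split moved with the scaling, to 1 higher of 3 after loess, 1 of 3 when centred on the tested regions and 2 of 6 after quantile normalization. It was 7 of 8 without background subtraction, 11 of 12 after normexp and 8 of 10 in the authors' deposited values. Of all regions 13.3%, 12.2%, 18.6%, 30.2%, 35% and 30.7% passed in these settings, in the same order. The groups did not overlap at 3 higher and 2 lower regions (10.7% and 7.14%), against 17.5% and 4.55% of all, and 0 of the 28 differed by more than 1 log2 unit, where 0.582% of all regions did so in the higher and 0.0215% in the lower direction. The lowest p belonged to the region from 174166469 to 174166926 (3 probes). It read -1.85, -1.54 and -1.45 with glucose intolerance and -0.91, -0.67 and -0.42 with normal tolerance. The groups did not overlap and differed by -0.95 (standard error 0.17, adjusted p = 0.169 in limma). The difference was -0.58 without background subtraction, -0.30 after normexp and -0.70 with dim MeDIP spots raised. It was -0.49 in the authors' deposited values (adjusted p = 0.0257 in limma, where the other settings gave 0.00938 to 0.849). With both channels required above background these probes formed no region. Among higher regions the lowest p was at 174154692 to 174156613 (5 probes), which read 1.24, 0.95 and 0.78 against 0.70, 0.22 and 0.02, a difference of 0.68 (standard error 0.20, adjusted p = 0.238 in limma), but of 0.24 in the authors' deposited values. It was also 1 of 6 regions of the locus with a mean above the array median on all 6 arrays. The region that follows, from 174157075 to 174158293 (5 probes), was low in both groups, at -2.24 ± 0.32 and -1.88 ± 0.61 (SD, n = 3 each).

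Probes with dim input were described from a fit that kept them. In it 0 of 317 locus probes passed an adjusted p of 0.05, as did 0 of 174372 on the arrays (0%), and 52 passed an unadjusted p of 0.05 (16.4%, against 16.3% of all). These were 32 higher and 20 lower, or 10.1% and 6.31%, against 9.54% and 6.8% of all. The groups did not overlap at 39 higher and 30 lower probes (12.3% and 9.46%, against 14% and 9.33%). Differences beyond 1 log2 unit were found at 16 higher and 11 lower probes (5.05% and 3.47%, against 5.69% and 3.76%). Among the 95 locus probes that only this fit added, 18 passed the unadjusted threshold (18.9%), where 23.4% of all 58723 probes with dim input did. The largest difference belonged to the probe at 174124586 to 174124630 (Ch_220697_0094083), within the highest window. It read 0.98, 0.55 and 0.86 with glucose intolerance and -0.63, -3.30 and -2.81 with normal tolerance. The groups did not overlap, and the difference was 3.05 (standard error 0.62, adjusted p = 0.116 in limma), but 1.19 in the authors' deposited values. Its input was well above background on 1 of 3 glucose intolerance arrays and on 3 of 3 normal tolerance arrays. The input signal, relative to the array median, was lower by 1.83 log2 units under glucose intolerance (a difference of -1.83) and the MeDIP signal was higher by 1.09. The flanking probes differed by 0.18 and 0.65. The probe at 174116041 to 174116085 (Ch_220697_0094046) read -3.30, -2.73 and -2.42 against -0.95, -1.19 and -1.24, a difference of -1.69 (adjusted p = 0.0892 in limma). On all 6 arrays its MeDIP spot was dim, so no fold is given, with them raised the difference was -1.11, and in the authors' deposited values it was -0.23.

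The highest and lowest probes of the profile had spots near background in at least 1 channel. The 3 highest probes, at 174132457 (mean 2.11), 174166242 (1.93) and 174111448 (1.84), had input well above background on 1, 0 and 0 of 6 arrays. MeDIP at 174166242 was well above background on only 1 glucose intolerance and 2 normal tolerance arrays. In the authors' deposited table the 3 highest probes averaged 0.49, 0.27 and 0.65. The 3 lowest, at 174168308 (-4.53), 174133714 (-4.38) and 174113988 (-3.97), had bright input but MeDIP well above background on only 1, 1 and 2 of 6 arrays, all with glucose intolerance. With those dim MeDIP spots raised they were at -3.31, -3.20 and -3.65. Adjacent probes did not share these extremes in most cases: those on either side of the lowest were at 0.42 and 0.84. Over 278 pairs of locus probes at most 300 bp apart the ratios correlated at r = 0.306, and over all such pairs of the arrays at 0.311. This is a correlation across probes, which share fragments of the same libraries and are not independent replicates. The group differences of neighbours had the same sign in 54.0% of 276 pairs in the locus and in 54.4% of all pairs.

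Ratios also went with probe length. The median ratio of locus probes was 0.15 for 45 nt, -0.28 for 46 to 50 nt, -0.78 for 51 to 55 nt and -1.30 for 56 to 60 nt. Over all probes the medians were 0.44, -0.18, -0.60 and -0.97. At each length the locus was thus below the arrays as a whole. The share of its probes with dim input was 15.8%, 28.3%, 54.5% and 50.8% in the same order, against 20.7%, 31.7%, 43.7% and 70.1% of all probes. The group difference had a median of 0.12, -0.03, 0.07 and -0.02 in the 4 length classes, against 0.17, 0.03, 0.03 and 0.03 over all probes. The low stretch at the distal end had a median probe length of 46.5 nt.

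**Figure D5:**
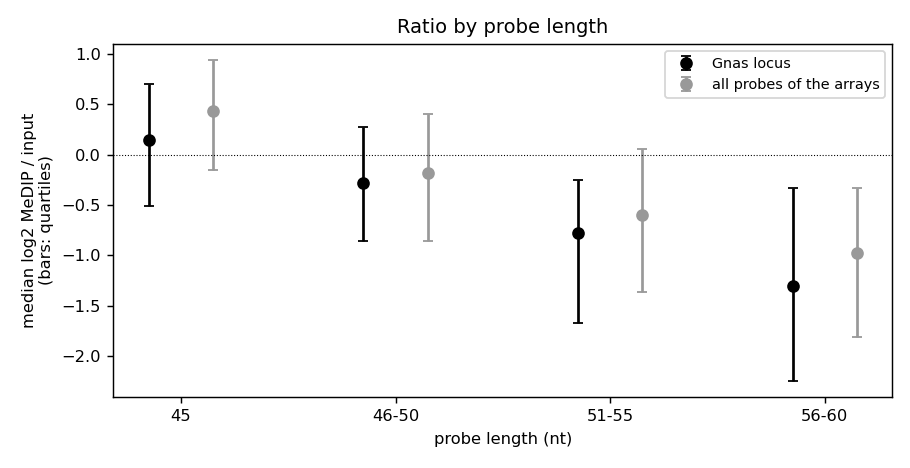
Median log2 MeDIP over input ratio by probe length in nt, for the Gnas locus (black) and all probes (grey), with bars from the lower to the upper quartile. The medians fall from 0.15 to -1.30 in the locus and from 0.44 to -0.97 over all probes.

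By the measure fixed for likeness, Pearson's r of a region's mean with the locus mean over the 6 arrays, the closest of 18534 regions outside the locus were at chr18:78319924-78320789 (5 probes, r = 0.998) and chr3:80839046-80840647 (7 probes, r = 0.996). With 6 arrays and this many regions such values describe these arrays only, and no test was made. Across all locus probes the correlation between 2 arrays was 0.871 to 0.913 when both had glucose intolerance, 0.812 to 0.883 when both had normal tolerance and 0.696 to 0.887 otherwise. Over all tested probes of the arrays, which leave out dim input, the ranges were 0.911 to 0.946, 0.867 to 0.914 and 0.757 to 0.932 in the same order.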

How the data were processed

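Genomic DNA of 6 pancreas samples was immunoprecipitated for methylated DNA; per the labels' protocols Cy5 labelled the immunoprecipitate and Cy3 the input, on all arrays. The deposited scanner files hold spot intensity values written by Agilent Feature Extraction (version 11.0.1.1, ChIP settings), background-subtracted and linearly dye-normalized per the file headers. The authors also deposited a table of log2 values whose normalization and any smoothing are not given in the sources used here; neighbouring probes of the locus correlated at r = 0.752 in it and at 0.306 in the scanner ratios.

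Here log2 of processed Cy5 over Cy3 intensity was centred per array on its median over non-control probes. Spots with a non-uniformity outlier mark (25 in the locus) were set to missing. Probes whose input was not well above background on at least 1 array were left out of the main fit. Differences are glucose intolerance minus normal tolerance, tested by lmFit and eBayes of limma 3.58.1 in R 4.3.3 over all probes or regions of the arrays, with Benjamini-Hochberg adjustment at 0.05. The number of arrays, 3 in each group, limits the precision. The locus and its description were chosen with earlier results of these data known.

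Probes were named by rule: the 3 of lowest p among higher and among lower probes, the 2 with the largest difference among those with dim input, the 3 highest and the 3 lowest by mean ratio, and the 2 most similar regions elsewhere. Alternatives were normexp (offset 50), unsubtracted signals, loess, quantile normalization, other centring, filters, blocks and region rules, and each array left out. Normexp and unsubtracted ratios used median spot signals, since mean signals were planned but median columns were the ones at hand. The labels do not say that replicate numbers pair samples, so they were not taken to do so. Deviations from the group means correlated between same-numbered arrays at r = 0.57, 0.54 and 0.041. Arrays of different number were not compared in this way, so these values do not decide whether samples are paired. The statistics were tested on simulated data with independent noise at each probe and no scan effect. Such data cannot show how the p-values behave on these arrays, where scan goes with group.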

Additional observations from a re-analysis of the deposited data

How the results depend on the processing

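The count of locus probes past an adjusted p of 0.05 was 0 in the main setting. It became 11 with normexp, 6 with unsubtracted signals, 9 with quantile normalization and 3 with both channels above background. With the authors' deposited values it was 16, with the replicate block 10 and with trend and robust variance 1. Leaving out 1 array gave 0 to 14, and only the fit without normal tolerance replicate 1 gave more than 0. Calls over the whole arrays under these settings were not counted, so nothing particular to the locus is read from the counts. The count at an unadjusted p of 0.05 was 40 of 222, against 15.8% of all tested probes. It became 69 of 223 with the authors' deposited values, against 29% of all. With the scan as a random block it was 16 of 222, against 5.93% of all. No scan held arrays of both groups, so this block cannot separate scan from group. With 1 array left out the count was 23 to 53, the lowest without glucose intolerance replicate 3. Over the 6 such fits the shares of all probes were 8.89% to 28.4%. Regions past the adjusted threshold numbered 0, and 3 with normexp, 3 with the authors' deposited values and 2 with the replicate block. Leaving out 1 array gave 0 each time. For regions too, calls over the whole arrays under these settings were not counted. At an unadjusted p of 0.05 the 4 of 28 regions (against 15.8% of all) became 12 with normexp (35% of all) and 8 with unsubtracted signals (30.2%). They became 10 with the authors' deposited values (30.7%), 2 with the scan block (5.21%) and 11 with the replicate block (25.9%). Keeping dim input and a gap of 1000 bp merged the locus into 5 and 6 regions, and 1 (15.7% of all) and 0 (16.8% of all) passed. Leaving out 1 array gave 2 to 7 (8.41% to 27.8% of all). There were 2 without glucose intolerance replicate 2 and 7 without normal tolerance replicate 1 or 2.

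The locus mean difference of 0.08 became -0.0515 with loess and -0.0471 with quantile normalization, 0.17 with normexp, 0.17 with unsubtracted signals and 0.0016 when centred on the tested probes, and was 0.0089 to 0.15 with 1 array left out. The difference between run 3 and run 5 was 0.67, became 0.40 with normexp, 2.11 between the highest and lowest 5 kb windows and 0.93 with dim input left out, and was 0.62 to 0.74 with 1 array left out; the last 2 settings named were chosen after seeing the data. All 6 probes with the lowest p kept their sign, though not their size, under the 13 other settings. Several of these settings left the difference itself unchanged, and the probes were picked for low p in these data. The groups did not overlap at any of the 6, so leaving out an array could not change the sign and is no check of it. The lowest adjusted p in the locus (limma) ranged from 0.0176 to 0.842 over the 13 settings. Other than where a setting changes the features or samples, the cause of these changes was not tested. The 2 named probes with dim input were tested only in the fit that keeps them. No pairing was assumed from replicate numbers, and a change under the block is not read as a change of effect. Signal over background limits the extremes: ratios of probes with dim input or dim MeDIP have no firm order.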
